A study of Caenorhabditis elegans with 2 samples.

Results

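Transfer RNA (tRNA) genes held 434 of the 30000 regions that the authors called on both replicates of a PAT-9 ChIP-seq experiment, and 174 of the peaks that they kept as optimal, against 561 optimal peaks elsewhere. Of all pooled regions 2.45% were optimal. A region was counted when its summit, the base of highest enrichment, lay within 200 bp of one of the 612 nuclear genes annotated as tRNA. The size of the enrichment did not enter this choice, though the position of the summit did. Of the 612 genes, 398 (65.0%) had such a region and 181 (29.6%, Wilson 95% interval 26.1 to 33.3%) had an optimal peak.

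PAT-9 is a zinc finger transcription factor required for muscle development in Caenorhabditis elegans. Chromatin came from whole embryos of strain RW12085 at a late embryonic stage, with an age given as 3 hours, after synchronisation by bleaching of eggs. Both sexes were pooled, the chromatin was sonicated, and PAT-9 was precipitated through its tag with an antibody against GFP. The 2 biological replicates form 1 group, and there is no second condition. The sample source describes a CRISPR insertion of mNG and 3xFlag at pat-9 on the X chromosome, whereas other labels name a fusion to eGFP or a GFP-FLAG tag at the C terminus, and which tag was present cannot be told from them. With whole embryos, more bound cells and stronger binding per cell cannot be told apart. A control library was used in calling the regions and was not analysed here, so enrichment at tRNA genes in a control was not tested.

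tRNA genes are short and are transcribed by RNA polymerase III. Their promoter lies inside the gene: the A box and the B box are bound by TFIIIC, which brings TFIIIB to the DNA just upstream of the start, and TFIIIB recruits the polymerase. A run of T residues after the gene ends transcription. C. elegans carries many copies of most tRNA genes, a large part of them on the X chromosome, and RNA polymerase II genes often lie next to them or enclose them in an intron.

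The sequences of the strongest regions show these parts of the gene. Each is written 5′ to 3′ along the tRNA gene with 40 bases before it and 20 after it, and the capitals mark the core of the B box, searched for as GTTCGANNC on the strand of the gene. The bases were read from the RefSeq assembly of WBcel235, the same assembly as ce11. C04A11.t1 is a leucine tRNA gene with an intron of its own at chrX:13665515-13665693 (plus strand, flanks included), C33G3.t2 a lysine tRNA gene at chrX:14063926-14064058 (minus strand) and F29C4.t1 an arginine tRNA gene at chrIV:143942-144074 (plus strand). They were taken because they had the highest signal among regions with 1 tRNA gene at the summit whose sequence could be shown.
C04A11.t1: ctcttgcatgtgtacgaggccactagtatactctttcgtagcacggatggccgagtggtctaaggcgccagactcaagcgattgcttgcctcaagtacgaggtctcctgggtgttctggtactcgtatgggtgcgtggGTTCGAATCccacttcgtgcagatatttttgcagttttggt
C33G3.t2: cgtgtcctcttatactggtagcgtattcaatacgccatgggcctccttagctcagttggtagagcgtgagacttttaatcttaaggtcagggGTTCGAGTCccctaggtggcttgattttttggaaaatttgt
F29C4.t1: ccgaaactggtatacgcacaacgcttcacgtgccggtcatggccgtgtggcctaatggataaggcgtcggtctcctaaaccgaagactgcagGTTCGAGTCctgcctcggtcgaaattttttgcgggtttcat
The B box core began at base 99 of C04A11.t1 and at base 53 of each of the other genes. The summit lay 16 bp downstream of the first base of C04A11.t1, 19 bp upstream of that of C33G3.t2 and 23 bp upstream of that of F29C4.t1. All 3 summits were therefore nearer to the start of the gene than to its B box, and a run of at least 4 T residues followed each gene.

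The same tRNA gene could carry a strong or a weak region. C33G3.t2, shown above, and C25F6.t4, at chrX:5451184-5451316 (minus strand), have the same bases from end to end of the gene and belong to a family of 14 identical lysine tRNA genes. They were chosen as the identical copies with the largest ratio of signal among those that could be shown.
C25F6.t4: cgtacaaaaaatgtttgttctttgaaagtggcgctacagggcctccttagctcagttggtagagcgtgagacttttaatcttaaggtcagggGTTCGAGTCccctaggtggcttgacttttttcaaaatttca
The signal was 382 at C33G3.t2 and 26.3 at C25F6.t4, a ratio of 14.5, and the regions ranked 34 and 25559 among the 30000. Of the 40 bases before the gene 9 were the same in both copies, and of the 20 bases after it 15 were the same. At C25F6.t4 the summit lay 112 bp downstream of the first base, beyond the end of the gene.

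Regions at tRNA genes were concentrated near the top of the pooled list, below its very strongest entries. They made up 1 of the 20 strongest regions, 11 of the strongest 50, 32 of the strongest 100 and 66 of the strongest 200 (33%). Their share was 23.7% of the optimal peaks, 8.87% of the 3000 strongest regions and 1.45% of all 30000. The signal, the authors' enrichment value for a region, ranged from 23.9 to 492 over the 434 regions with a median of 77.2 (quartiles 43.1 and 151.2). It is comparable only within a list. By signal the optimal list is the head of the pooled list, which 2.45% of all pooled regions reached, against 40.1% (174 of 434, 35.6 to 44.8%) of the regions at tRNA genes.

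The optimal peaks at tRNA genes had a median signal of 170.3 (102.2 to 492), against 130.3 (101.3 to 991) for the 561 optimal peaks elsewhere. They were also narrower: 64 of 174 (36.8%) spanned under 430 bp, against 118 of 561 (21.0%) elsewhere. The groups overlapped in signal, and the strongest peaks of the list lay elsewhere.

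The 10 strongest regions at tRNA genes covered 8 amino acids, and 7 of them were on the X chromosome. The strongest, at C04A11.t1 (Leu, X, 13665424 to 13665750), had a signal of 492 and rank 12. In the replicates' own lists its signal was 190 (rank 12) in replicate 1 and 302 (rank 14) in replicate 2. It lay between protein-coding genes, 1025 bp from the nearest protein-coding start, that of C04A11.5. The second, at F15G9.t1 (Ala, X, 9743434 to 9743818, in an intron of him-4, which encodes the basement membrane protein hemicentin), had a pooled signal of 429, with 142 (rank 40) in replicate 1 and 295 (rank 18) in replicate 2. The third, at F17H10.t1 (Gly, X, 13121175 to 13121475, in an intron of the sorting nexin gene snx-17), had 407, with 123 (rank 54) in replicate 1 and 282 (rank 20) in replicate 2. Replicate 2 gave the last 2 a clearly better rank, and both replicates placed all 3 regions near the top of their own lists.

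W03G11.t1 (Lys, X, 12106028 to 12106312) followed with 402, and with rank 35 in replicate 1 and 28 in replicate 2. F41D9.t3 (Asn, X, 8404363 to 8404733), on the opposite strand within an intron of the sulfate permease family gene sulp-3, had 398 with ranks 42 and 23 in replicates 1 and 2. C33G3.t2 (Lys, X) had 382 with ranks 28 and 36, and F29C4.t1 (Arg, IV), in an intron of the collagen gene col-99 on the opposite strand, had 370 with ranks 20 and 47. The order of these regions differed between the replicates, so neighbours in it are not distinguished. C37A2.t1 (Cys, I), in an intron of the cyclin E gene cye-1, had 354 with ranks 41 and 45. T21B4.t1 (Ile, II), in an intron of the collagen gene col-85 and 318 bp from a start of col-85, had 348 with ranks 18 and 67. C42D8.t1 (Ile, X), 1132 bp from the start of ets-5, an ETS family transcription factor gene, had 343 with ranks 52 and 41. None of the 10 ranked lower than 67 in either replicate. The best regions of the other chromosomes were those at F57F5.t1 on V (Ile, signal 335, ranks 36 and 65) and at B0523.t1 on III (Trp, signal 335, ranks 38 and 53).

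Over all regions the replicates gave a similar order, and less so among the weaker regions. Each pooled region was matched to the strongest overlapping region of a replicate's own list. Of the 434 regions, 375 had a match in both lists, 46 had none in replicate 1, 19 had none in replicate 2, and 6 of these had none in either. Over the 375, the signals of the 2 replicates had a Spearman rho of 0.865 and a Pearson r of 0.852 on the log2 scale. Over the 372 regions that were the strongest of their nearest gene, 315 of them matched in both lists, rho was 0.860. A weaker region beside a strong one can be matched to that strong one, so the first value counts some replicate regions more than once. Among optimal peaks rho was 0.815 at tRNA genes (n = 174) and 0.536 elsewhere (n = 561). Pearson r on the log2 scale lay closer together for these groups, at 0.820 and 0.720. Among the 260 regions at tRNA genes that were not optimal, 201 of them matched in both lists, rho was 0.569 and r was 0.732. These correlations run across regions of the same pair of libraries and are a description.

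In each replicate's own list, as many of its strongest regions as the optimal list holds were taken as its top regions. Of the 434 regions, 190 (43.8%) overlapped a top region of replicate 1, against 3.33% of all pooled regions. For replicate 2 it was 208 (47.9%), against 3.2% of all pooled regions, and 171 (39.4%) did so in both replicates. A weaker region could be counted through a strong neighbour, and 46 of the 190 and 45 of the 208 were not optimal. Overlapping pairs of an optimal peak and a weaker region numbered 47 at tRNA genes and 196 in the rest of the pooled list. Such pairs raise the shares at tRNA genes more than those of all pooled regions. Of the 174 optimal peaks at tRNA genes, 144 (82.8%) overlapped a top region of replicate 1 and 163 (93.7%) one of replicate 2, against 386 (68.8%) and 468 (83.4%) of the 561 optimal peaks elsewhere. The optimal peaks at tRNA genes thus reached the top of each replicate's own list more often than those elsewhere, and both groups did so more often in replicate 2 than in replicate 1.

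**Figure D1:**
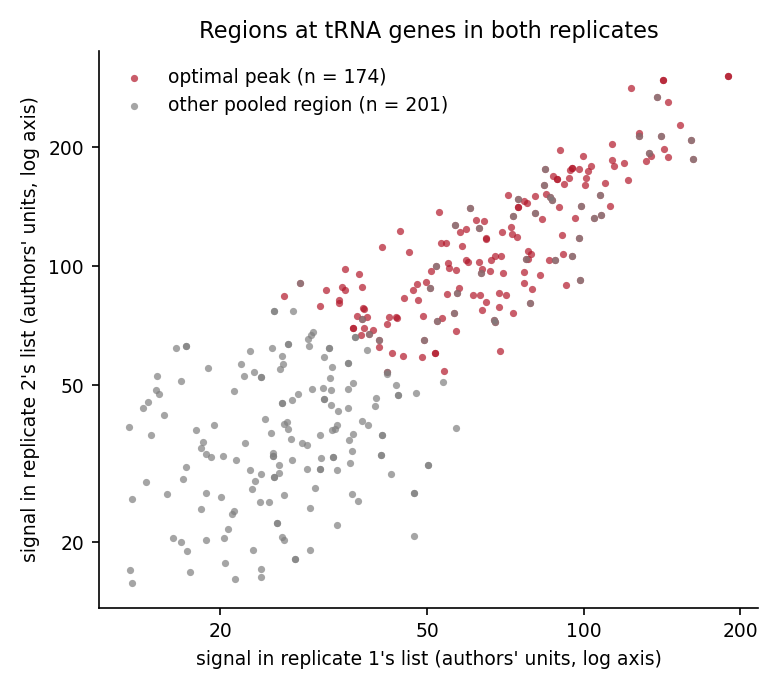
Signal of the 375 regions at tRNA genes that were matched in both replicates, with replicate 1 on the x axis and replicate 2 on the y axis (authors' units, both axes logarithmic). Optimal peaks (174, red) fill the upper right and the other pooled regions (201, grey) the lower left, with a shared zone between them, and grey points that coincide with red ones are weaker regions matched to the same strong neighbour.

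The 5 optimal peaks with the largest ratio between the replicates' ranks all ranked lower in replicate 1. The region at Y43F4A.t2 (Asn, III) ranked 4937 in replicate 1 and 425 in replicate 2, and that at C18A11.t2 (Arg, X) ranked 3757 and 360. The other three were at C03F11.t1 (Met, X; 2403 and 392), Y43D4A.t2 (Gly, IV; 2655 and 476) and C47E8.t1 (Tyr, V; 1725 and 310). Their pooled signals, between 112.6 and 135.0, lay in the lower part of the optimal range. None of the strongest regions named above was among them.

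The choice of regions confined summits to within 200 bp of a gene, and within that limit most lay over the gene or just beside it. Of the 434 summits 207 (47.7%) fell inside the gene, 131 upstream of it and 96 downstream, and their median distance from the first base was 31 bp in the direction of transcription, with quartiles at -16 and 65 bp. In the replicates' own lists this median was 26 bp in replicate 1 (n = 416) and 19 bp in replicate 2 (n = 434). Among the 174 optimal peaks 109 (62.6%, 55.3 to 69.5%) were inside the gene, with a median of 20.5 bp (quartiles -3.5 and 44.8 bp). Among the top regions of each replicate the medians were 20 bp in replicate 1 (n = 151) and 14 bp in replicate 2 (n = 168). For the 127 optimal peaks whose gene held the B box core, the summit was upstream of the B box in 100 (78.7%). Over all 127 the median summit position was -38 bp from the first base of the core (quartiles -63.5 and -8 bp). The strongest signal thus stood over the first part of the gene, ahead of its B box.

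Enrichment fell off within a short distance. The share of regions that were optimal was 52.7% for summits inside the gene (109 of 207) and 46.0% for summits 1 to 50 bp away (57 of 124). It was 10.7% at 51 to 100 bp (3 of 28), 8.51% at 101 to 150 bp (4 of 47) and 3.57% at 151 to 200 bp (1 of 28). The limit of 200 bp fell within a stretch of weak regions. Just inside it were F58D5.t1 (193 bp, signal 55.7), F14B6.t2 (194 bp, 24.9) and T05A8.t1 (194 bp, 35.3), and just outside it Y53C10A.t3 (202 bp, 61.4), Y7A5A.t4 (208 bp, 29.4) and F48E3.t1 (215 bp, 30.2). None of the 41 regions with the summit beyond 200 bp and up to 400 bp from a tRNA gene was optimal. Farther away 1 of 5 was optimal up to 500 bp, 1 of 57 from there to 750 bp and 2 of 53 from there to 1000 bp.

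Of the 103 regions with the summit over 50 bp from the gene, 58 accompanied a stronger region at the same gene. The 372 regions that were the strongest of their nearest gene had a median signal of 90.2, and 170 of them (45.7%) were optimal. The other 62 were further regions of a gene that already had one, with a median signal of 44.7 and a median distance of 128.5 bp from the gene, and 4 of them (6.45%) were optimal. Counted by gene, with every region within 200 bp, 71 genes had 2 regions and 327 had 1.

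Distant summits were not placed evenly around the gene. Among summits over 50 bp from a gene, 32 of 43 (74.4%, 59.8 to 85.1%) at genes on the minus strand and 46 of 60 (76.7%, 64.6 to 85.6%) at genes on the plus strand lay at the higher genome coordinate. Higher coordinates are upstream of a minus-strand gene and downstream of a plus-strand gene, so the side followed the chromosome and not the direction of transcription. The lists of the single replicates gave 75% (36 of 48) and 74.0% (54 of 73) for minus and plus strands in replicate 1, and 71.4% (35 of 49) and 77.8% (49 of 63) in replicate 2. The same held away from tRNA genes: where an optimal peak overlapped a weaker pooled region, the weaker summit was at the higher coordinate in 47 of 47 pairs at tRNA genes and in 195 of 196 elsewhere. The side of the weaker region was thus a feature of the deposited lists as a whole.

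**Figure D2:**
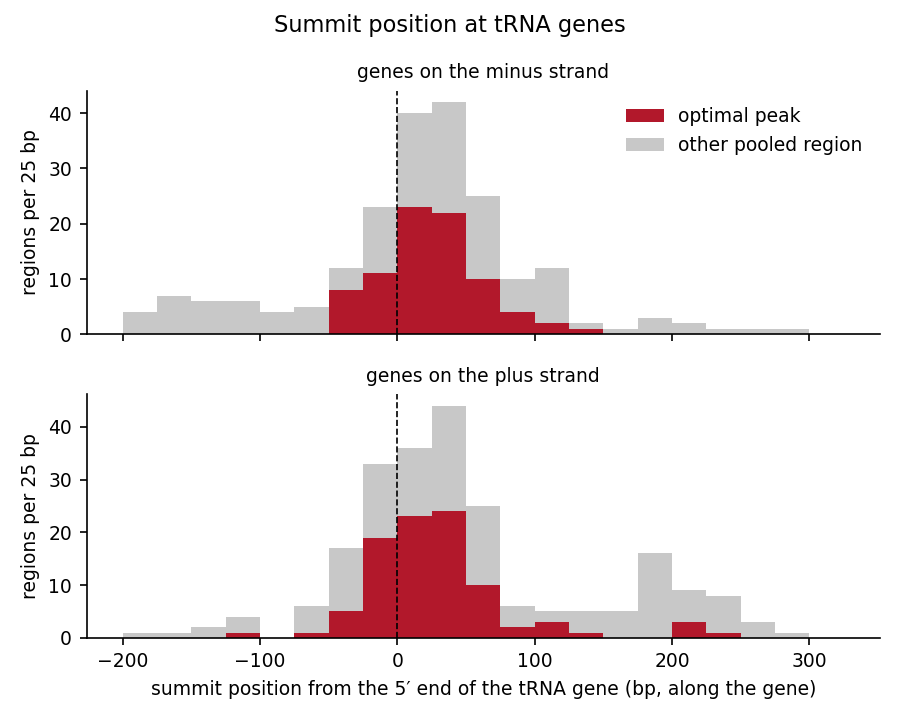
Number of regions per 25 bp (y axis) by the position of the summit from the 5′ end of the tRNA gene, measured along the gene (x axis, bp), for genes on the minus strand (top) and on the plus strand (bottom). Optimal peaks (red) pile up between the start and the end of the gene on both strands, with medians of 21 and 18 bp, and the outlying regions (mostly grey, not optimal) sit upstream at minus-strand genes and downstream at plus-strand genes.

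The strands were also compared by the position of the summit and by the share of genes with a peak. Over all regions the median summit position was 23 bp at genes on the minus strand (n = 207) and 35 bp at genes on the plus strand (n = 227). Among optimal peaks it was 21 bp (n = 81) on the minus strand and 18 bp (n = 93) on the plus strand, and with a limit of 100 bp in place of 200 bp the difference over all regions changed sign. A peak was present at 85 of 314 minus-strand genes (27.1%) and at 96 of 298 plus-strand genes (32.2%). Their intervals, 22.5 to 32.2% and 27.2 to 37.7%, overlapped.

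On the X chromosome tRNA genes had a peak about as often as on autosomes. Of 276 X-linked genes 83 (30.1%, 25 to 35.7%) had an optimal peak, against 98 of 336 autosomal genes (29.2%, 24.6 to 34.2%). With the top regions of replicate 1 the shares were 27.5% on X and 25% on autosomes, and with those of replicate 2 they were 29.7% on X and 28.0% on autosomes. The median signal of a region was 80.6 on X and 75.9 on autosomes, and the upper quartile 178.1 on X and 131.8 on autosomes. The order of the shares turned round, to -0.18 percentage points for X minus autosomes, when double the number of regions were counted as peaks, so no order is read from it. Among the autosomes the share ran from 23.1% on V (18 of 78) to 40.6% on III (26 of 64), with intervals that overlapped (15.1 to 33.6% and 29.5 to 52.9%).

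The X chromosome held many of the peaks at tRNA genes, in a share close to its share of the genes. It carried 81 of the 174 optimal peaks at tRNA genes (46.6%, 39.3 to 54.0%) and 276 of the 612 tRNA genes themselves (45.1%). Of the 561 optimal peaks elsewhere 114 (20.3%, 17.2 to 23.8%) were on X, and of the pooled regions away from tRNA genes 15.1%. The tRNA genes thus supplied 81 of the 195 optimal peaks on X.

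Genes that stood alone had a peak more often than clustered ones. A gene was called clustered when another tRNA gene lay within 1000 bp, which gave 236 clustered and 376 lone genes. Of the clustered genes 49 (20.8%, 16.1 to 26.4%) had an optimal peak, against 132 of the lone genes (35.1%, 30.5 to 40.1%), a difference of -14.3 percentage points. The intervals did not overlap. In replicate 1 the shares were 19.1% for clustered and 30.6% for lone genes, and in replicate 2 they were 19.5% for clustered and 34.6% for lone genes. An optimal peak within 200 bp of 2 genes counted for both, so that the 49 clustered genes shared 38 optimal peaks. Counted by region, 38 of 133 (28.6%) at clustered and 136 of 301 (45.2%) at lone genes were optimal. Counted by cluster, 34 of the 100 clusters had at least 1 peak, close to the 35.1% of lone genes. The lower share thus holds gene by gene and region by region, and not cluster by cluster. The median signal of a region was 60.1 at clustered and 88.1 at lone genes, a difference of -0.55 on the log2 scale. Within clusters the share was 25.6% for genes in pairs (40 of 156) and 11.25% for genes in clusters of 3 or more (9 of 80).

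The difference was larger on X than on autosomes, and this difference between chromosomes was not tested. On X 24 of 135 clustered genes (17.8%, 12.2 to 25.1%) and 59 of 141 lone genes (41.8%, 34 to 50.1%) had a peak. On autosomes the counts were 25 of 101 clustered genes (24.8%, 17.4 to 34%) and 73 of 235 lone genes (31.1%, 25.5 to 37.2%), with intervals that overlapped. In replicate 1 the X shares were 17.8% for clustered and 36.9% for lone genes, and in replicate 2 they were 17.8% for clustered and 41.1% for lone genes.

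**Figure D3:**
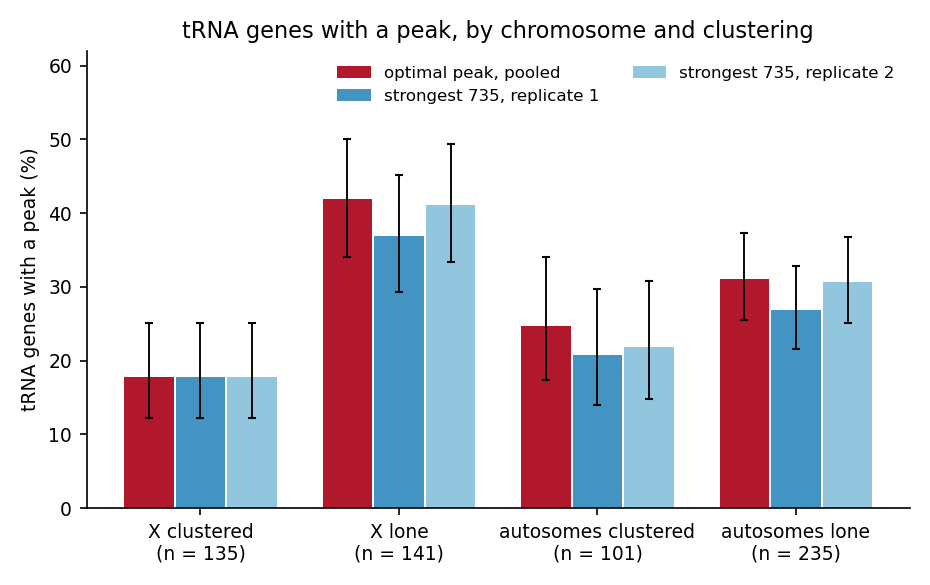
Share of tRNA genes with a peak (y axis, %) for clustered and lone genes on X and on autosomes, in the pooled list (optimal peaks) and among the top regions of each replicate. Error bars are Wilson 95% intervals and cover counting error only. On X the 3 bars of clustered genes stand at 17.8% and those of lone genes between 36.9 and 41.8%, while on autosomes the bars of clustered genes (20.8 to 24.8%) and of lone genes (26.8 to 31.1%) have overlapping intervals.

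Repeated sequence around a gene, in which short reads may have no unique place, moved with clustering. A gene's surroundings were called unique when at least 90% of the 31-base words within 200 bp on each side of it occur once in the genome, a measure chosen after the results were seen. Of the 236 clustered genes 85 fell short of this, against 30 of the 376 lone genes. A neighbouring tRNA gene within 200 bp was not left out of these words. A close neighbour with copies elsewhere thus lowered the measure by itself, and genes with unique surroundings leave out many close pairs. Among genes with unique surroundings a peak was present at 26 of 151 clustered genes (17.2%, 12 to 24%) and at 131 of 346 lone genes (37.9%, 32.9 to 43.1%). On X the counts were 12 of 91 clustered genes (13.2%) and 59 of 135 lone genes (43.7%). The part of repeated surroundings in the difference was not tested, and this split cannot tell it apart from close spacing.

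Within clusters the share differed between orientations of neighbours. In the 51 pairs of neighbouring genes that faced away from each other, with their 5′ ends adjacent, 10 of 102 genes (9.80%) had a peak. It was 17 of 56 (30.4%) in the 28 pairs with adjacent 3′ ends and 26 of 114 (22.8%) in the 57 pairs in tandem. The median distance between neighbours was 161 bp with adjacent 5′ ends, 225.5 bp with adjacent 3′ ends and 453 bp in tandem. A gene with a neighbour on each side was counted in both pairs, and a peak within 200 bp of both genes counted for both. With unique surroundings of both genes the shares were 10.4% (5 of 48), 35.7% (10 of 28) and 14.5% (11 of 76). The median distances in this count were 201.5, 471.5 and 454 bp in the same order, so it also left out closer pairs. The pairs with adjacent 5′ ends had the lowest share with and without this limit. No intervals were computed for these shares, and with the limit 5 of 48 and 11 of 76 are too few to read an order from. The parts of spacing and orientation were not tested.

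The 100 clusters held between 2 and 6 genes, and 78 of them were pairs. A peak was present in 34, all genes of the cluster had one in 13, and 16 had no region. In most of those 13, a single peak lay within 200 bp of both genes and counted for both. The largest clusters held few regions. The 6 genes F22F1.t2 to F22F1.t7 (X, 8154445 to 8156707; Ser, Asp, Met and Ile) had 1 peak, at F22F1.t6 (Met) with a signal of 188.5, rank 286 in replicate 1 and rank 187 in replicate 2. The 6 identical histidine genes of the cluster that includes F28H6.t2 (X, 14135045 to 14137010), which alternate in strand, had 2 regions of which the stronger reached 36.8, and a median of 28.7% of the words around them were unique. The clusters with the most regions held 4 each: Y65A5A.t1 to Y65A5A.t4 on IV had 2 peaks (200.5 at Y65A5A.t1, 127.4 at Y65A5A.t2), and the pair Y105C5B.t4 and Y105C5B.t1 on IV, with adjacent 5′ ends, had 1 (104.3).

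Copies of the same gene varied widely. The 612 genes comprised 200 distinct sequences, of which 57 occurred more than once. Genes with an identical copy had a peak in 157 of 469 cases (33.5%, 29.4 to 37.9%), against 24 of 143 genes with a sequence of their own (16.8%, 11.5 to 23.8%). In replicate 1 the shares were 29.6% for repeated and 14.7% for single sequences, and in replicate 2 they were 32.4% for repeated and 16.8% for single sequences. Among genes with unique surroundings the shares were 35.8% for repeated (137 of 383) and 17.5% for single sequences (20 of 114). The intervals did not overlap, and the order was the same on X and on autosomes and for clustered and lone genes.

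The 20 families with at least 10 identical copies held 317 genes. In every one of them some copies had an optimal peak and others had no region within 200 bp. The share of copies with a peak ran from 17.2% (5 of 29, the largest glycine family) to 60.0% (9 of 15, an alanine family). The ratio of the strongest to the weakest region of a family lay between 3.47 (arginine, 10 copies) and 15.5 (asparagine, 18 copies). In the family of 25 lysine genes the strongest region, at W03G11.t1, had a signal of 402 and the weakest, at F39B1.t2, one of 28.3, while 8 copies had no region. In the family of 19 isoleucine genes T21B4.t1 had 348 and B0344.t1 had 28.9, and 8 copies had no region. The gene sequence was thus shared by strong regions, weak regions and copies with no listed region. Over all tRNA genes, surroundings fell short of unique at 27.1% of genes without a region and 13.3% of genes with a peak. A copy without a region is therefore not read as unbound.

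**Figure D4:**
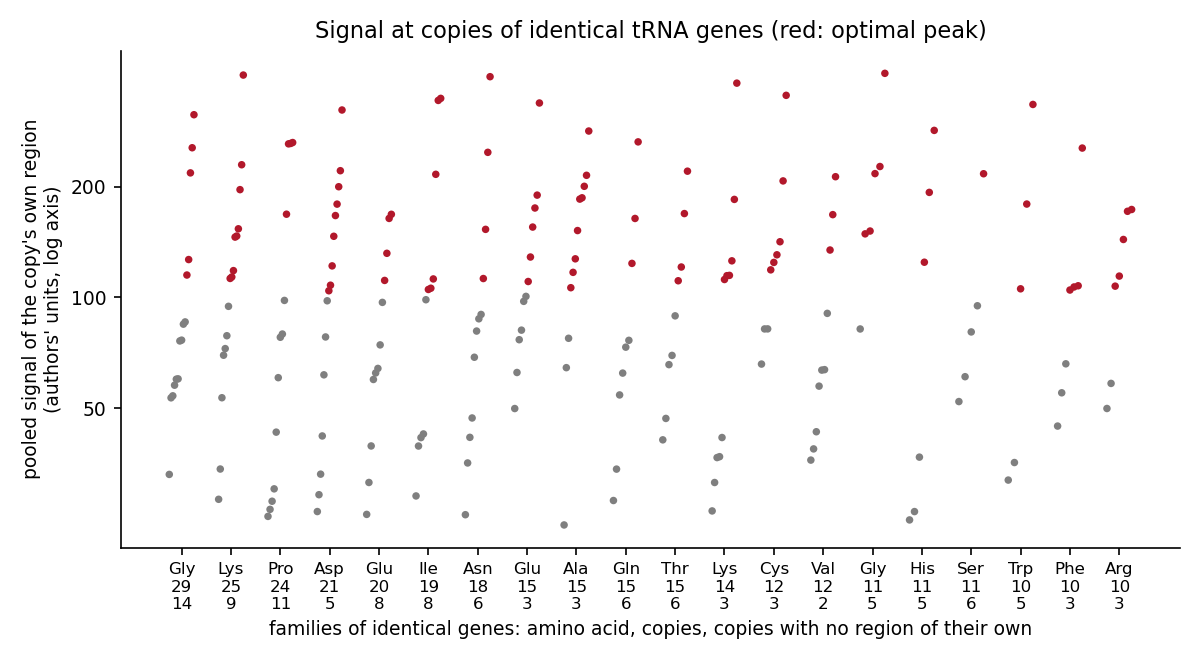
Pooled signal (y axis, authors' units, logarithmic) of the strongest region whose nearest tRNA gene was the copy shown. The x axis gives the 20 families with at least 10 identical tRNA genes, by amino acid and number of copies. Below these it gives the number of copies that were not the nearest gene of any region. Red points are optimal peaks and grey points other pooled regions, and every family has both, with a spread between 3.47-fold and 15.5-fold.

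Clustering was associated with fewer peaks within families as well. Over the 40 families with both clustered and lone copies, 44 of 187 clustered copies (23.5%, 18.0 to 30.1%) and 90 of 229 lone copies (39.3%, 33.2 to 45.8%) had a peak. The clustered share was lower in 21 families, higher in 10 and equal in 9. Over the 43 families with copies on X and on autosomes, 67 of 185 X-linked copies (36.2%) and 76 of 223 autosomal copies (34.1%) had a peak.

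Peaks were spread over all amino acids that the annotation gives to 12 or more genes. The annotation of 607 genes named an amino acid. The shares of genes with a peak were highest for cysteine (6 of 13, 46.2%), phenylalanine (6 of 14, 42.9%), alanine (14 of 34, 41.2%) and threonine (13 of 34, 38.2%). They were lowest for glutamine (4 of 27, 14.8%), and for glycine (11 of 55), histidine (4 of 20) and asparagine (4 of 20) at 20% each. The interval for cysteine ran from 23.2 to 70.9% and that for glutamine from 5.92 to 32.5%, so these ends of the order overlapped. Some places in the order differed between the replicates. With the top regions of replicate 1 the share was 38.5% for cysteine, 28.6% for phenylalanine, 38.2% for alanine and 32.4% for threonine, and with those of replicate 2 it was 38.5%, 21.4%, 41.2% and 32.4% for the same amino acids. Of the low ones, glutamine had 11.1% in replicate 1 and 18.5% in replicate 2, glycine 21.8 and 20%, histidine 15 and 20%, and asparagine 10 and 25%. Phenylalanine was thus high in the pooled list and not in replicate 2, where the share over all tRNA genes was 28.8%. The single selenocysteine gene and the 5 genes with no assigned amino acid had no peak. The strongest regions for amino acids not named so far were at C28G1.t1 (Glu, 338), R04D3.t2 (Val, 325), F38G1.t2 (Asp, 323), C02B4.t2 (Tyr, 315), E03E2.t1 (Ser, 302), R01H5.t1 (Thr, 290), C06G1.t1 (His, 284), T15B12.t1 (Met, 272), R04A9.t1 (Gln, 265), T23F1.t2 (Pro, 264) and T28B4.t1 (Phe, 255). F38G1.t2 lay in an intron of egl-17, which encodes a fibroblast growth factor, and 130 bp from a start of egl-17. E03E2.t1 lay in an intron of cat-1, which encodes a vesicular monoamine transporter. Both host genes were on the opposite strand. C28G1.t1 lay 132 bp from a start of C28G1.2, and T15B12.t1, R04A9.t1 and T23F1.t2 lay within 500 bp of a protein-coding start. The part of such starts in the signal was not tested. All of these regions ranked 107 or better in the pooled list.

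Genes inside and outside the introns of protein-coding genes had a peak about as often. In introns 85 of 283 tRNA genes (30.0%, 25 to 35.6%) had a peak, against 96 of 329 elsewhere (29.2%, 24.5 to 34.3%). In replicate 1 the shares were 23.7% in introns and 28.3% elsewhere, and in replicate 2 they were 29.3% in introns and 28.3% elsewhere, so the replicates differed in the order. With the host gene on the same strand the share was 31.1%, and on the opposite strand 28.7%. Where a protein-coding gene started within 500 bp, 40 of 117 tRNA genes (34.2%, 26.2 to 43.2%) had a peak, against 141 of 495 (28.5%, 24.7 to 32.6%) with no start that near. These intervals overlapped.

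The B box core was about as frequent in genes without a region as in genes with a peak. GTTCGANNC was present in 131 of 181 genes with a peak (72.4%), in 151 of 217 with a region and no peak (69.6%) and in 159 of 214 without a region (74.3%). It was present in 441 of all 612 tRNA genes (72.1%). In the 101 bp around the summit, on either strand, it was found in 68 of the 174 optimal peaks at tRNA genes (39.1%, 32.1 to 46.5%). It was found in 24 of the 561 optimal peaks elsewhere (4.28%, 2.89 to 6.29%) and 1.40% of all pooled regions. Most tRNA genes hold the core and these regions were chosen for lying at such genes. Their higher share therefore follows from the choice, and nothing about binding is read from it. A run of 4 T residues began within 10 bp of the end in 98.9% of genes with a peak, 96.8% of genes with a region and no peak and 97.7% of genes without a region. The terminator, too, was about as frequent at genes without a region as at genes with a peak.

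The bases before the gene differed more. In the 50 bp upstream the median GC content was 46.0% for genes with a peak, 42.0% for genes with a region and no peak and 38.0% for genes without a region. From 33 to 27 bp upstream A and T made up 73.0% of the bases at genes with a peak, 70.4% at genes with a region and no peak and 70.1% at genes without a region. On either side of this block the groups parted: from 50 to 34 bp upstream A and T made up 50.7% at genes with a peak, 58.4% at those with a region and no peak and 64.8% at those without a region, and from 26 to 1 bp upstream 49.3%, 52.2% and 57.2% in the same order. The genes at the top regions of either replicate had 50.7% from 50 to 34 bp. The stretch from 33 to 27 bp upstream was thus richer in A and T than the windows beside it in all groups, most clearly at genes with a peak. At genes without a region it was not set apart base by base. There A and T reached 71.5% at 35 bp upstream, outside it, and 63.1% at 28 bp upstream, inside it. TATA on the strand of the gene, searched for in the 50 bp upstream, was present at 21.5% of genes with a peak (16.2 to 28.1%), 14.7% with a region and no peak and 17.8% without a region, and at 17.8% of all 612 genes. These windows were set after the profile had been seen. Base composition can also affect how reads are recovered, and its part in the signal was not tested.

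**Figure D5:**
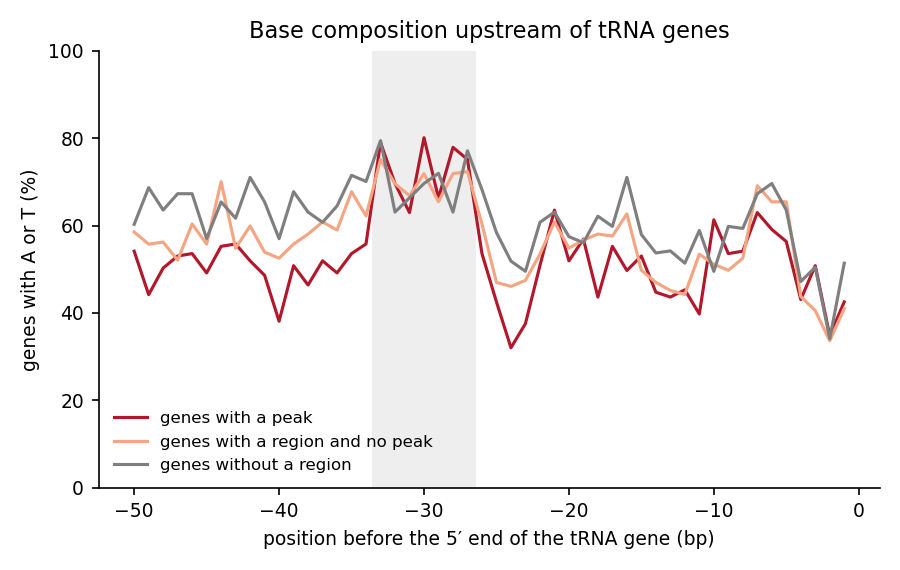
Share of tRNA genes with A or T (y axis, %) at each position from 50 bp upstream of the gene to its first base (x axis, bp), for genes with a peak (181, red), with a region and no peak (217, orange) and without a region (214, grey). The shaded block from 33 to 27 bp upstream has 70.1 to 73.0% A or T in all groups, and outside it the line of genes with a peak runs mostly lowest.

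Other genes known to be transcribed by RNA polymerase III differed among themselves. The region at rpr-1, the RNA component of RNase P, which trims the 5′ end of tRNA precursors, had a signal of 473 and rank 14, with rank 22 in replicate 1 and rank 11 in replicate 2. That at mrpr-1, the RNA of the related RNase MRP, had 271 and rank 88, with ranks 53 and 121 in replicates 1 and 2. The Y RNA gene yrn-1 and the 16 annotated genes for 5S ribosomal RNA had no pooled region within 200 bp. Most of the 5S genes lie close together on V, and whether short reads have a unique place there was not measured. Their absence from the list is therefore not read as absence of binding. Of 13 protein-coding genes of the polymerase III machinery and of tRNA processing, 1 had an optimal peak in its promoter (the 1000 bp before a start and the 500 bp after it): rpac-19, a subunit shared by polymerases I and III, with a signal of 134.9 and rank 381 (387 in replicate 1 and 553 in replicate 2). Of all 19973 protein-coding genes 2.58% had an optimal peak in this window, and 43.5% had any pooled region there, against 9 of the 13. The region at rpc-1, the largest subunit of polymerase III, ranked 7298.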

How the data were processed

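ChIP-seq of PAT-9 from 2 biological replicates was analysed from the authors' region lists on ce11. Per the notes deposited with them, each replicate list and a pooled list were called against a control and hold 30000 regions before any threshold, and the optimal list of 735 was derived from them by IDR, a method that keeps what replicates share. The signal value of each region is the authors' and was used only within a list, for ranks, medians and thresholds. The −log10 q value deposited by the authors was not used to rank regions, because many strong peaks share its maximum. The sources used here give no aligner, caller, version or IDR threshold, and the depth is unknown.

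tRNA genes came from Ensembl release 115, amino acids from the RefSeq annotation and bases from the RefSeq assembly of WBcel235. A region belonged to the nearest tRNA gene within 200 bp of its summit. A gene had a peak when an optimal summit lay within 200 bp, so 1 peak could count for 2 genes. With 1 group there is no test over samples, and regions and genes are not replicates, so shares carry Wilson 95% intervals (counting error only) and the main shares and medians are repeated in each replicate's list, with its strongest 735 as peaks. Shares by distance, orientation, family and motif, and at pseudogenes, come from the pooled list alone. Alternatives were other distances, peak numbers, cluster distances, motif letters and copy numbers, and leaving out each replicate. The members, lists and comparisons were chosen with earlier results of these data known. Named were the 10 strongest regions, the strongest of each chromosome and amino acid, those nearest the distance limit, the 5 with the most divergent ranks, and the largest clusters. Genes named within families, and the pseudogenes and polymerase III genes with peaks, were chosen after their values were seen. The assignment of summits to genes was tested on simulated data. Versions were Python 3.11.15, pandas 2.3.3, NumPy 2.4.6, SciPy 1.17.1 and matplotlib 3.10.9.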

Additional observations from a re-analysis of the deposited data

How the results depend on the processing

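No paired analysis was possible because the 2 replicates form 1 group with no second condition. The depth is unknown, the intervals cover counting error only, and enrichment below the weakest listed regions was not detectable. Which regions a control library would give at tRNA genes was not tested.

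The lower share of peaks at clustered than at lone genes (-14.3 points) and the higher share at repeated than at single sequences (16.7 points) kept their direction under every alternative run. For clustered minus lone genes it was -9.26 points with a limit of 500 bp and -11.1 points with the stronger 50% of the optimal list, and -15.1 to -11.5 points without a replicate. The difference in median log2 signal was -0.64 with the summit inside the gene, -0.41 with 500 bp, -0.40 with clusters defined at 500 bp, and -0.41 to -0.36 without a replicate. For repeated minus single sequences the difference was 16.1 points with 100 bp, 10.5 with the summit inside the gene, 14.7 with 500 bp, 13.1 with the stronger 50%, 19.6 with double the number of peaks, 17.5 where a region had only to overlap the gene, 10.8 for 4 or more copies and 14.9 to 15.6 without a replicate.

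Several small differences turned round, and the cause was not tested. X minus autosomes, 0.91 points in the share of genes with a peak, was 3.27 with 500 bp, 4.87 with the stronger 50%, -0.18 with double the number of peaks and 1.73 to 2.54 without a replicate. In median log2 signal it was 0.087, and it was -0.0030 with 100 bp, 0.28 with 500 bp and 0.10 to 0.24 without a replicate. The median summit position at minus-strand minus plus-strand genes, -12 bp, was 7 bp with 100 bp, -2.5 bp with the summit inside the gene and -24 to -15 bp without a replicate. Introns minus other places, 0.86 points, was 4.99 with the summit inside the gene, -4.02 with the stronger 50% and -4.59 to 1.06 without a replicate, the negative value without replicate 2. The B box core at genes with a peak minus genes without a region, -1.92 points, was -0.89 with 100 bp, -0.045 with the summit inside the gene, -3.65 with 500 bp, -2.76 with the stronger 50%, -3.56 with double the number of peaks, -3.75 with a G required before the core, and 0.51 to 1.34 without a replicate.

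Counts and shares moved with the limits that define them. With the summit inside the gene, 207 regions remained, 52.7% of them were optimal, 17.8% of genes had a peak, 44.4% of regions were in the top of both replicates, and the range over amino acids was 23.4 points instead of 31.3. With 100 bp 47.1% of regions were optimal and 57.7% had the summit inside the gene. With the stronger 50% of the list 27.6% of regions and 21.2% of genes had a peak, 28.6% of regions were in the top of both replicates and the range over amino acids was 20 points. With double the number of peaks these were 52.1%, 37.4%, 47.9% and 44.2 points. Without a replicate, 36.3 to 38.7% of regions and 26.1 to 28.8% of genes had a peak, 41.8 to 44.9% of summits were inside the gene, the median position was 19 to 26 bp, and the range over amino acids was 22.7 to 30.0 points. Values that need both replicates, and the share inside the gene where only such summits count, had no such alternative. The analysis of unique surroundings and of the bases upstream was added after seeing the data.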

Other observations

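Annotated tRNA pseudogenes, which are degenerate copies of tRNA genes, rarely carried a peak. RefSeq lists 209 of them, and 202 lie over 1000 bp from any tRNA gene. Of these 202, 48 had a region within 200 bp and 3 (1.49%, Wilson 95% interval 0.506 to 4.27%) had an optimal peak, against 181 of 612 tRNA genes (29.6%). The 3 were strong: D1046.t1 had a signal of 418 (rank 23), C52E12.t1 one of 246 (rank 113) and T08B2.t1 one of 237 (rank 122), each with the summit inside the pseudogene.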
